A study of Mus musculus with 4 samples.

Results

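The insulin-like growth factor (IGF) axis and the long noncoding RNA H19 were followed in C2C12, a line of mouse myoblasts. These cells multiply while serum is plentiful and join into multinucleated myotubes once it is withdrawn. The 10 genes were chosen by name: the ligands Igf1 and Igf2, the receptors Igf1r and Igf2r, the binding proteins Igfbp2, Igfbp3, Igfbp4, Igfbp5 and Igfbp6, and H19. Each had 1 transcript cluster, the probe set of a transcript on a whole-transcript array, annotated to that gene alone, and all 10 were read on all 4 arrays. They are 10 of 14860 genes with such a cluster.

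Every group was 1 culture of C2C12 on 1 array. MUNC is a long noncoding RNA whose gene lies upstream of the muscle determination gene Myod1. Cells depleted of it by siRNA (siMUNC) were compared with cells treated with a control siRNA, both while differentiating and while proliferating. To differentiate, cultures at 80% confluence were moved to 2% horse serum and harvested after 3 days, and proliferating cells were kept in 10% fetal bovine serum. The 4 groups are thus siMUNC differentiating, control differentiating, siMUNC proliferating and control proliferating cells. The sequence, dose and timing of the siRNA are not stated in the labels. MUNC itself was not analysed, because 0 of the named clusters were paired with its RefSeq entry, so how far it was depleted is unknown and the group names follow the labels.

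With no replicates there is no spread to test a difference against, and no p-value was computed. Values are on a log2 scale, a difference of 1 is 2-fold, and a gene was counted as higher or lower when its difference was at least 1 in size. A value under 8.50 is called dim; this level is the median over genes of their mean on the 4 arrays. The array medians lay between 7.96 and 8.03 and the correlations between arrays over all clusters between 0.964 and 0.988. All 8 myoblast markers (Myod1, Myf5, Des, Cdh15, Itga7, Chrng, Pax7 and Cd34) read at or above 8.50 on all 4 arrays, 0 of 4 osteoblast and 0 of 5 liver markers did so on any array. Depending on the array, 4 to 7 of 10 fibroblast, 2 to 4 of 8 adipocyte and 0 to 2 of 7 macrophage markers did.

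IGF1 and IGF2 are secreted peptides that signal mainly through the IGF1 receptor, a tyrosine kinase that feeds the PI3K-AKT-mTOR and MAP kinase pathways. The IGF2 receptor, which is also the cation-independent mannose 6-phosphate receptor, takes IGF2 into lysosomes and does not signal as a tyrosine kinase. The IGF-binding proteins hold the ligands outside the cell and can either limit or prolong their action. Myoblasts make IGF2 as they differentiate and respond to it themselves. H19 is an abundant noncoding RNA of fetal and muscle tissue that shares enhancers with its neighbour Igf2, and the pair is imprinted in opposite ways, H19 from the maternal and Igf2 from the paternal chromosome.

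Both neighbours host a microRNA, so the H19 and Igf2 clusters report on transcripts from which those microRNAs can be cut. The mature sequences are shown, from RefSeq (GRCm38.p6), with the seed (bases 2 to 8) in capitals. The miR-675 hairpin lies inside H19 at chr7:142577064-142577147, minus strand, and the miR-483 hairpin inside Igf2 at chr7:142654924-142654996, minus strand. No cluster was named for either microRNA, and their levels were not analysed here.
mmu-miR-675-5p: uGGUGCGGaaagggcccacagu
mmu-miR-675-3p: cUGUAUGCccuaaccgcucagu
mmu-miR-483-5p: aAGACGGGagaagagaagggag
mmu-miR-483-3p: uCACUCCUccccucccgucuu
The seeds of all 4 differ from each other, so no pair of them belongs to one seed family.

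Counted by comparison, 3 of the 10 genes (Igf2, Igf1 and H19) were past 2-fold higher on differentiation in siMUNC cells, where 2.01% of all genes were, and 0 were past 2-fold lower, against 0.828% of all genes. In control cells 4 (Igf2, Igf1, Igfbp4 and Igf2r) were past 2-fold higher, against 3.53% of all genes, and 1 (Igfbp2) lower, against 4.08%. The median difference of the 10 was 0.71 in siMUNC and 0.74 in control cells, where the medians of all genes were -0.02 and 0.05. The genes were chosen with these results known, so the counts describe the 10 genes and no more.

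With siMUNC in differentiating cells 1 of the 10 (Igfbp2) was past 2-fold higher, against 1.27% of all genes, and 2 (Igf2 and Igfbp4) lower, against 1.44%. The 10 had a median of -0.18, against 0.01 for all genes, with 3 above 0 and 7 below. In proliferating cells 0 were past 2-fold in either direction, where 0.236% of all genes were higher and 0.35% lower. There 5 of the 10 were above 0 and 5 below.

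Both ligands were higher in differentiating than in proliferating cells with either siRNA, and both differences were smaller in siMUNC cells. Igf2 read 9.67 in siMUNC and 12.07 in control differentiating cells, and 7.66 in siMUNC and 7.78 in control proliferating cells. Control differentiating cells stood far above the other 3 arrays, and both proliferating values were dim. On differentiation Igf2 was 4.03-fold higher in siMUNC cells (log2 difference 2.01) and 19.5-fold higher in control cells (4.29). Among all 14860 genes the difference in control cells was the 25th highest. With siMUNC, Igf2 was 5.25-fold lower in differentiating cells (-2.39), the 14th lowest difference of all genes, and 1.08-fold lower in proliferating cells (-0.12). The differentiation effect in control cells and the knockdown effect in differentiating cells share the control differentiating array, so they are not independent. RNA was extracted from whole cultures, so fewer cells of a type and less RNA per cell cannot be told apart.

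Igf1 had the same order of arrays at lower values, except that the proliferating pair was turned round. It read 8.39 in siMUNC and 9.36 in control differentiating cells, and 6.91 in siMUNC and 6.37 in control proliferating cells. Control differentiating cells gave the 1 value that was not dim. On differentiation Igf1 was 2.80-fold higher in siMUNC cells (1.48), between values that were both dim, and 7.98-fold higher in control cells (3.00). With siMUNC it was 1.96-fold lower in differentiating cells (-0.97), just short of the 2-fold limit, and 1.46-fold higher in proliferating cells (0.54), where both values were dim.

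**Figure D1:**
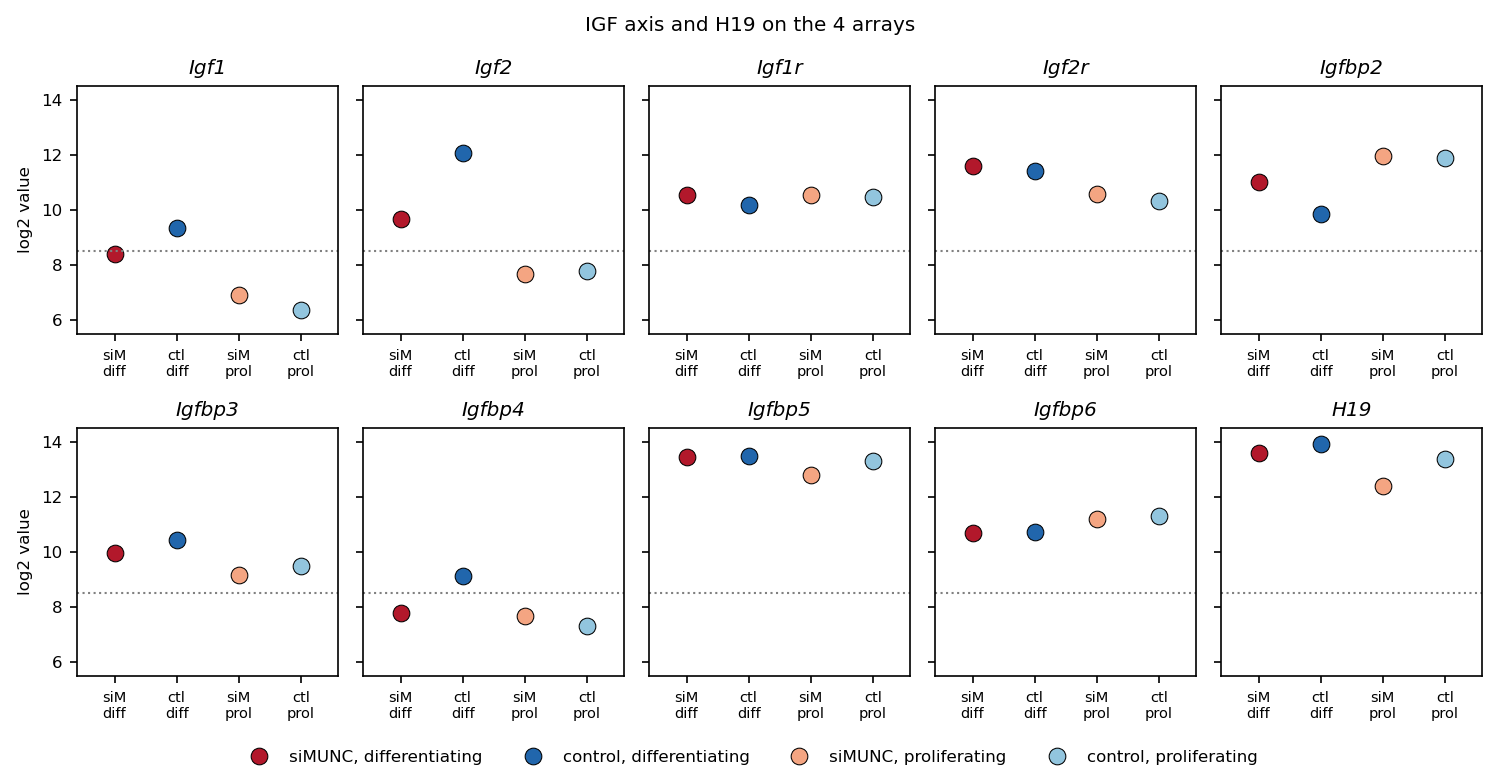
Log2 value of each of the 10 genes (vertical axis, 1 panel per gene) on the 4 arrays, in the order siMUNC differentiating, control differentiating, siMUNC proliferating and control proliferating; each point is 1 array and the dotted line marks 8.50, under which values are called dim. Igf2 stands at 12.07 in control differentiating cells against 9.67 with siMUNC, while Igf1r spans only 10.18 to 10.55 over the 4 arrays.

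The receptors differed less between the siRNAs in differentiating cells than the ligands did. Igf1r, which carries the IGF signal, read 10.54 in siMUNC and 10.18 in control differentiating cells, and 10.55 in siMUNC and 10.46 in control proliferating cells. Its 4 values spanned 0.37, the narrowest range of the 10 genes, and none of its differences reached 2-fold. With siMUNC it was 1.28-fold higher in differentiating cells (0.36) and 1.06-fold higher in proliferating cells (0.09).

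Igf2r, which clears IGF2, read 11.59 in siMUNC and 11.42 in control differentiating cells, and 10.59 in siMUNC and 10.33 in control proliferating cells. Both differentiating values stood above both proliferating values. The difference on differentiation was 0.999 in siMUNC cells, just short of the 2-fold limit, and 1.09 (2.12-fold) in control cells. The siRNA made little difference to it in either state, with siMUNC 1.12-fold higher in differentiating cells (0.17) and 1.19-fold higher in proliferating cells (0.26). The differentiation effect in siMUNC cells minus that in control cells was thus -0.09 for Igf2r, whereas it was -2.27 for its ligand Igf2.

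Of the binding proteins, Igfbp4 and Igfbp2 were past 2-fold with siMUNC in differentiating cells, in opposite directions. Igfbp4, mostly known as an inhibitor of IGF action that is cleaved by the protease PAPP-A, read 7.80 in siMUNC and 9.12 in control differentiating cells, and 7.66 in siMUNC and 7.30 in control proliferating cells. Control differentiating cells gave its 1 value that was not dim. The siMUNC differentiating value lay 0.13 above the siMUNC proliferating value, whereas in control cells Igfbp4 was 3.55-fold higher on differentiation (1.83). With siMUNC it was 2.51-fold lower in differentiating cells (-1.33) and 1.29-fold higher in proliferating cells (0.37), where both values were dim.

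Igfbp2, a binding protein with higher affinity for IGF2 than for IGF1, read 11.01 in siMUNC and 9.87 in control differentiating cells, and 11.97 in siMUNC and 11.88 in control proliferating cells. It was the 1 binding protein with its lowest value in control differentiating cells. On differentiation it was 1.95-fold lower in siMUNC cells (-0.96) and 4.03-fold lower in control cells (-2.01). With siMUNC it was 2.21-fold higher in differentiating cells (1.14), the 106th highest difference of 14860 genes, and 1.07-fold higher in proliferating cells (0.10).

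Igfbp3, the main carrier of IGFs in serum, read 9.97 in siMUNC and 10.43 in control differentiating cells, and 9.18 in siMUNC and 9.48 in control proliferating cells. It stood higher in both differentiating than in both proliferating cultures, by 0.80 in siMUNC and 0.95 in control cells, and lower with siMUNC in both states, by 1.38-fold in differentiating (-0.46) and 1.24-fold in proliferating cells (-0.31). None of these differences reached 2-fold as deposited. The difference on differentiation in control cells was 1.04 after quantile normalization and after cyclic loess.

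Igfbp5, the binding protein known for its induction in differentiating myoblasts, read 13.43 in siMUNC and 13.49 in control differentiating cells, and 12.80 in siMUNC and 13.32 in control proliferating cells. The siMUNC proliferating culture was the low one, and the other 3 lay within 0.17 of each other. At least 98.8% of all clusters read below Igfbp5 on every array, and the arrays' highest values were 14.07 to 14.32. On differentiation it was 1.55-fold higher in siMUNC cells (0.63) and 1.13-fold higher in control cells (0.17).

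Igfbp6, which prefers IGF2, read 10.69 in siMUNC and 10.73 in control differentiating cells, and 11.19 in siMUNC and 11.29 in control proliferating cells. Its difference on differentiation was -0.50 in siMUNC and -0.56 in control cells, and the siRNAs differed by -0.03 in differentiating and -0.09 in proliferating cells. Both differentiating values lay below both proliferating values, and the siRNA pairs were close in each state.

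H19 was the gene of the 10 with the widest difference between the siRNAs in proliferating cells. It read 13.61 in siMUNC and 13.91 in control differentiating cells, and 12.39 in siMUNC and 13.38 in control proliferating cells. The siMUNC proliferating culture was again the low one. With siMUNC, H19 was 1.24-fold lower in differentiating cells (-0.31) and 1.99-fold lower in proliferating cells (-0.99). The difference in proliferating cells was the 58th lowest of 14860 genes and just short of the 2-fold limit. On differentiation it was 2.32-fold higher in siMUNC cells (1.21) and 1.44-fold higher in control cells (0.53). At least 97.7% of clusters read below H19 on every array, and its value in control differentiating cells was 13.91 where the highest value of that array was 14.07. Whether a signal so near the top of the scale is compressed was not tested.

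**Figure D2:**
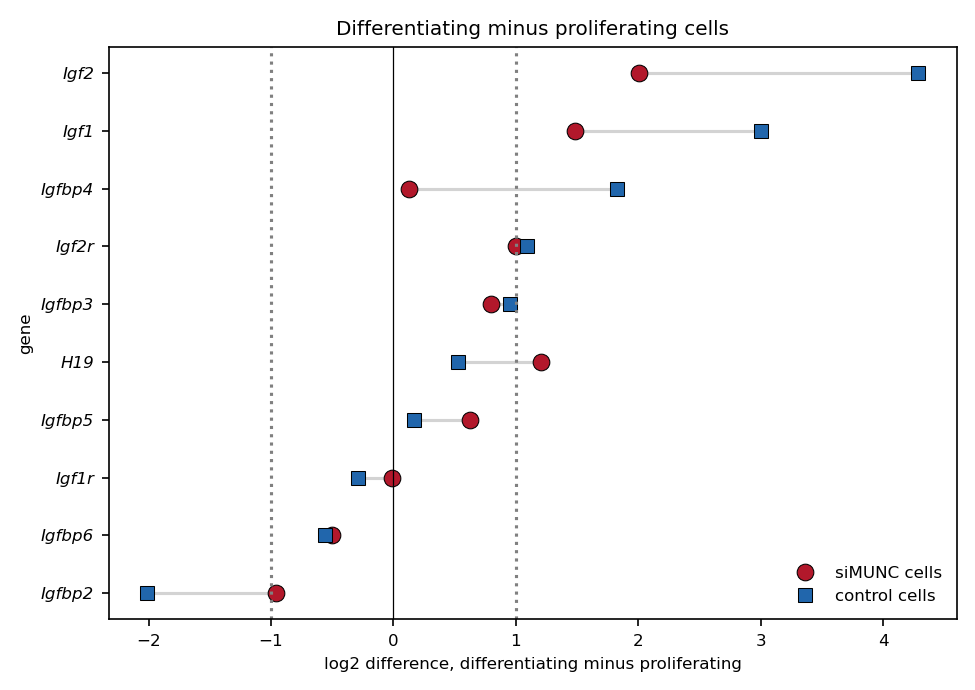
Log2 difference of each gene between differentiating and proliferating cells (horizontal axis) in siMUNC cells (circles) and control cells (squares); each point is the difference of 2 arrays and the dotted lines mark 2-fold. Igf2 (2.01 in siMUNC, 4.29 in control), Igf1 (1.48 and 3.00) and Igfbp4 (0.13 and 1.83) lie farther right in control cells, Igfbp2 lies farther left (-0.96 and -2.01), and H19 lies farther right in siMUNC cells (1.21 and 0.53).

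The comparison of the differentiation effects (siMUNC minus control) takes all 4 arrays. The effect was more than 2-fold smaller in siMUNC cells for Igf2 (-2.27), Igfbp4 (-1.69) and Igf1 (-1.51), 3 of the 10 where 1.7% of all genes were that far below 0. Igfbp2 was the 1 gene past 2-fold above 0 (1.05), against 2% of all genes, and it was not past that limit after median centring (0.96) or cyclic loess (just under 1). The difference of effects was 0.69 for H19 and 0.46 for Igfbp5, the pair with a low siMUNC proliferating value, and lay between -0.15 and 0.27 for Igf1r, Igf2r, Igfbp3 and Igfbp6. This difference was not tested for any of them, with 1 array per group.

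**Figure D3:**
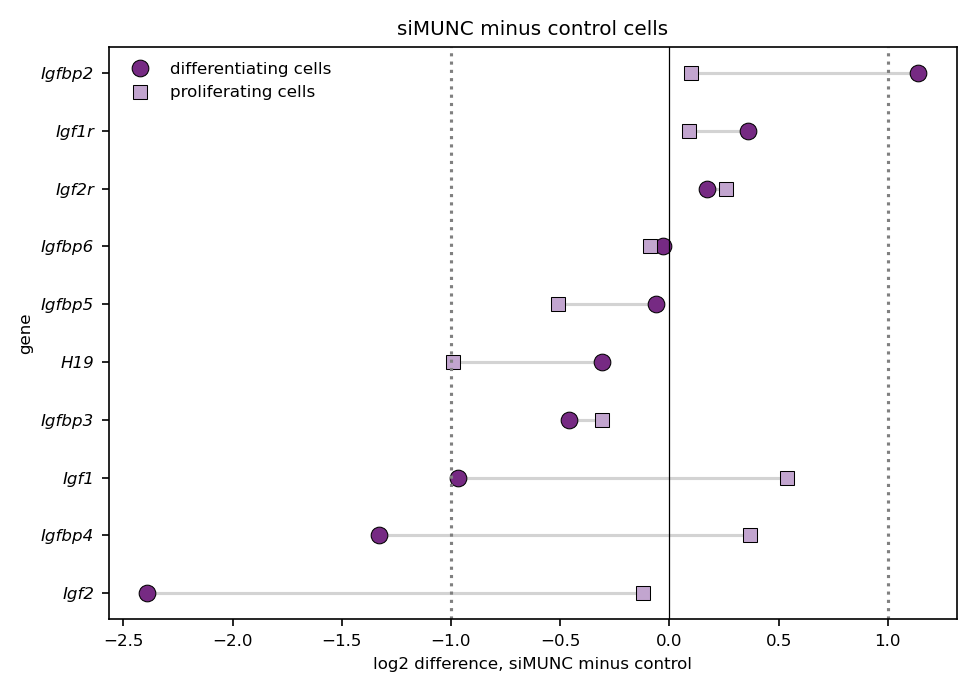
Log2 difference of each gene between siMUNC and control cells (horizontal axis) in differentiating cells (circles) and proliferating cells (squares); each point is the difference of 2 arrays and the dotted lines mark 2-fold. Igf2 (-2.39) and Igfbp4 (-1.33) lie past 2-fold lower and Igfbp2 (1.14) past 2-fold higher in differentiating cells, and H19 (-0.99) is the farthest from 0 in proliferating cells.

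Genes of muscle and of the cell cycle also differed with siMUNC in differentiating cells. There 5 of 7 differentiation genes were past 2-fold lower, against 1.44% of all genes: Mef2c (-2.05), Myog (-1.64), Ckm (-1.63), Tnnc1 (-1.36) and Tnnt3 (-1.08). Of 7 proliferation genes 6 were past 2-fold higher, against 1.27% of all genes: Ccnd1 (1.77), Ccne2 (1.52), Bub1 (1.39), Aurka (1.36), Mki67 (1.19) and Mcm3 (1.17). Of the 8 myoblast markers 1 was past 2-fold lower in that comparison, Myod1, at 10.70 in siMUNC and 11.75 in control cells (-1.04). Another, Cd34, was past 2-fold higher, at 12.38 in siMUNC and 11.30 in control cells (1.08). The other 6 were within 2-fold. In proliferating cells, where H19 had its wider difference, the 7 differentiation genes had a median of -0.74. Mymk, which encodes a protein of myoblast fusion, was only just past 2-fold lower, at 8.80 in siMUNC and 9.80 in control cells. Over all genes 0.35% were past 2-fold lower there. Mef2c (-0.99) and Myog (-0.98) were just short of that limit, with both values dim. The 7 proliferation genes had a median of -0.30 there, with 6 of them below 0 and 0 past 2-fold in either direction. Tk1 was just short of the limit, at 9.77 in siMUNC and 10.77 in control cells. With siMUNC in differentiating cells 2 of 10 fibroblast markers were past 2-fold lower, Lum (-3.55) and the dim Fap (-1.11), against 1.44% of all genes. In proliferating cells 0 of them were, against 0.35% of all genes. The log2 of the summed level of the 10 was 14.38 in siMUNC and 14.61 in control differentiating cells. In proliferating cells it was 13.26 in siMUNC and 13.46 in control cells. The 3 fibroblast markers past 2-fold higher on differentiation were Dpt, Dcn and Lum with either siRNA. Of 8 adipocyte markers 1 was, Lpl in siMUNC cells (1.19). The shares of all genes that far higher were 2.01% in siMUNC and 3.53% in control cells. Of 7 macrophage markers Cd14 was past 2-fold lower on differentiation in control cells (-1.03), against 4.08% of all genes. The part of the culture's makeup in the differences of the IGF genes was not tested.

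On a list of other genes around the IGF-binding proteins, 2 of 11 measured genes were past 2-fold in any comparison. Over all genes the shares ran from 0.236% to 4.08% per comparison and direction. Igdcc4, a cell-surface receptor of the immunoglobulin superfamily that is not known to bind IGFs, read 8.33 in siMUNC and 9.35 in control differentiating cells, and 7.31 in siMUNC and 7.26 in control proliferating cells. It was 2.03-fold lower with siMUNC in differentiating cells (-1.02) and 4.26-fold higher on differentiation in control cells (2.09), an order of arrays like that of Igf1. Stc1, stanniocalcin 1, a secreted protein that inhibits the protease PAPP-A, read 10.29 in siMUNC and 9.53 in control differentiating cells, and 7.97 in siMUNC and 8.84 in control proliferating cells. It was 4.97-fold higher on differentiation in siMUNC cells (2.31), where the siMUNC proliferating culture was the lowest of the 4, and 0.69 higher in control cells. The other 9, which include the insulin receptor Insr, the serine protease Htra1 and the related Igfbp7, were within 2-fold in all 5 comparisons.

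Of 28 measured genes of receptor signalling, 0 were past 2-fold with siMUNC in either state. Over all genes 1.27% were higher and 1.44% lower in differentiating cells, and 0.236% and 0.35% in proliferating cells. A count of 0 among 28 therefore does not set this list apart. The list's median difference was -0.05 in differentiating and -0.01 in proliferating cells. The widest in differentiating cells were Rptor, the mTORC1 scaffold (-0.95), and Ddit4, an inhibitor of mTORC1 (0.85). On differentiation in control cells 2 were past 2-fold higher: Deptor, an mTOR inhibitor (1.19), and Grb10, an adaptor that dampens IGF1 receptor signalling (1.24), dim on both arrays at 7.57 and 6.33 in differentiating and proliferating cells. In siMUNC cells 0 of the 28 were, with Deptor at 0.50 and Grb10 at 0.40. The shares of all genes past 2-fold higher on differentiation were 3.53% in control and 2.01% in siMUNC cells. The first adaptor of the receptor, Irs1, read 11.27 in siMUNC and 11.06 in control differentiating cells, and 11.31 in siMUNC and 11.19 in control proliferating cells, and Akt1 read 12.30, 12.29, 12.45 and 12.39 in the same order of arrays. Both were nearly level across the 4 cultures.

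H19, Igf2 and Igf2r are imprinted, and they are among 29 measured genes on a list of imprinted and related genes. Of the 29, 2 were past 2-fold lower and 0 higher with siMUNC in differentiating cells. Over all genes the shares were 1.44% lower and 1.27% higher. The 2 were Igf2, already counted among the genes chosen by name, and Cdkn1c, the p57 inhibitor of cyclin-dependent kinases. Cdkn1c read 8.23 in siMUNC and 9.36 in control differentiating cells, and 8.08 in siMUNC and 7.73 in control proliferating cells, a difference with siMUNC of -1.13 in differentiating and 0.35 in proliferating cells. In proliferating cells 1 of the 29 was past 2-fold lower, against 0.35% of all genes. It was Peg3, a paternally expressed zinc finger gene, at 11.14 in siMUNC and 12.21 in control cells (-1.08). The list's median difference with siMUNC was -0.03 in differentiating and 0.09 in proliferating cells, against 0.01 and 0.04 for all genes, so most of its members, dim ones included, lay near 0.

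Along chromosome 7 of GRCm38.p6 the named genes run in the order Tnni2, Lsp1, Tnnt3, Mrpl23, H19, Igf2, Ins2, Th and Ascl2. The neighbours H19 and Igf2 had their wider differences between the siRNAs in different states: siMUNC went with the lower H19 value mainly in proliferating cells (-0.99, against -0.31 in differentiating cells) and with the lower Igf2 value mainly in differentiating cells (-2.39, against -0.12 in proliferating cells). Of 11 measured genes around them, 4 were past 2-fold lower with siMUNC in differentiating cells and 0 higher. Over all genes the shares were 1.44% lower and 1.27% higher. The 4 were Tnni2 and Tnnt3, fast muscle troponin subunits (-1.87 and -1.08), Tspan32, a tetraspanin (-1.66), and Ins2, an insulin gene (-1.22). Tnnt3 is also among the differentiation genes counted above. Ins2 was dim on every array, from 4.86 in siMUNC proliferating to 6.72 in control differentiating cells. Lsp1, which lies between the troponin genes, differed by -0.10, and Ctsd, Cd81 and Tssc4 lay between -0.06 and 0.20.

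**Figure D4:**
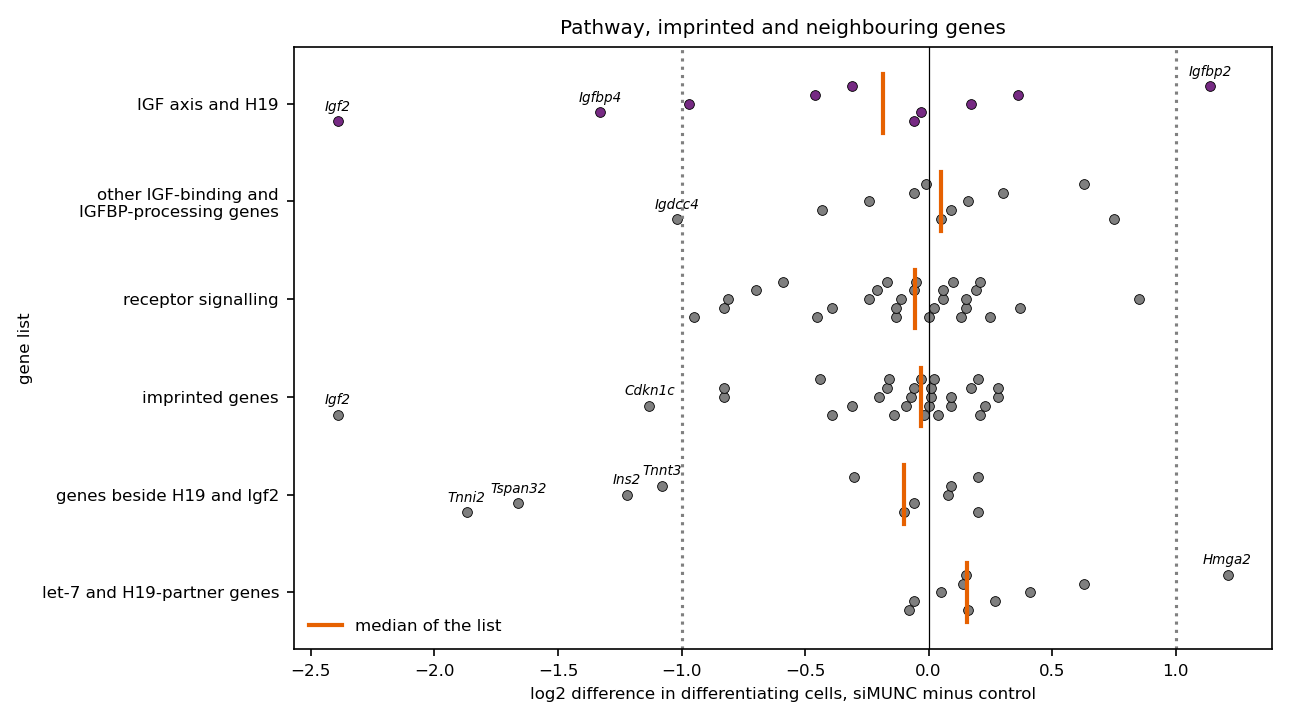
Log2 difference between siMUNC and control cells in differentiating cells (horizontal axis) for the 10 genes and for 5 lists of related genes (rows); each point is 1 gene, vertical bars are list medians, dotted lines mark 2-fold, names are given past 2-fold, and points are spread vertically only to separate them. Igf2 (-2.39) lies farthest left, and all 28 receptor signalling genes lie within 2-fold. Over all genes 1.44% were past 2-fold lower and 1.27% higher.

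Genes tied to H19 by reports from other systems were also read. Of the reported targets of miR-675, Smad1, Smad5 and Igf1r were within 2-fold in all comparisons. Cdc6, a replication licensing factor, read 7.49 in siMUNC and 6.76 in control differentiating cells, and 8.14 in siMUNC and 8.82 in control proliferating cells. It was 4.16-fold lower on differentiation in control cells (-2.06), where 4.08% of all genes were past 2-fold lower. All 7 proliferation genes above were past 2-fold lower in that comparison too. The difference of effects of Cdc6 was 1.40, against 2% of all genes past 2-fold above 0. Of 10 genes of let-7 and H19 partners, Hmga2, a chromatin protein and let-7 target, was the 1 past 2-fold with siMUNC in differentiating cells. Over all genes 1.27% were past 2-fold higher there. It read 11.90 in siMUNC and 10.69 in control differentiating cells (1.21), and 12.55 in siMUNC and 12.22 in control proliferating cells (0.33). On differentiation in control cells Hmga2 (-1.53) and the methyltransferase Ezh2 (-1.06) were past 2-fold lower, against 4.08% of all genes.

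To see which genes had the most similar profile, each gene's 4 values were centred on their mean and compared by Euclidean distance on the log2 scale, among 7872 genes whose highest value was at least 8.50. The measure rests on 4 arrays and is a description. Nearest to Igf2 were Pygm, muscle glycogen phosphorylase (distance 0.189), Myom1, a protein of the sarcomere's M-band (0.277), Ankrd2 (0.334), its near neighbour on the chromosome Tnni2 (0.424) and Trdn, triadin (0.467). Pygm, for example, read 10.00 in siMUNC and 12.27 in control differentiating cells, and 7.79 in siMUNC and 7.86 in control proliferating cells. Nearest to Igf1 were Ctrb1 (0.329), Synpo2l (0.338), Tmem38b (0.446), Htr2b (0.449) and Gadd45a (0.46).

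Nearest to Igfbp2 were Ccna2, cyclin A2 (0.168), Sgo2a, a shugoshin of the centromere (0.179), the centromeric histone Cenpa (0.19), Mmd (0.195) and Chek2, a checkpoint kinase (0.198). Nearest to Igfbp4 were Atp1b2 (0.139), Cdkn1c (0.166), Ptgfr (0.205), Exoc3l (0.219) and Pacsin3 (0.308), of which Cdkn1c is on the imprinted list. H19 was nearest to Mycl (0.144), Olfml3 (0.158), Dync1i1 (0.23), Tmem86a (0.263) and Kcnmb2 (0.264). For Olfml3, an olfactomedin-like secreted protein, the siMUNC proliferating culture was the low one too, at 10.85, against 12.03 in control proliferating cells. Igf2r was nearest to Mxra8 (0.02), Pdcd4 (0.031), Cpeb1 (0.068), Mxd4 (0.09) and Crebrf (0.129), and Igfbp3 to Pdlim3 (0.055), Lama2 (0.079), Phka2 (0.081), Amacr (0.092) and Slc29a1 (0.099). Distances grow with a gene's own range, so they order genes for 1 member and are not compared between members.

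MyoD and myogenin bind the E-box CANNTG, with CAGCTG and CACCTG among the forms known from muscle genes, so promoters of the genes with the widest differences between the siRNAs in differentiating cells (Igf2, Igf1, Igfbp4 and Igfbp2) are shown. Of their 8 windows, the 6 that hold an E-box are printed, and starts 2 and 4 of Igf2 hold none. RefSeq windows of 300 bases, from 250 before to 50 after a transcription start, were found for 9 of the 10 genes (13 windows, 4 of them for Igf2 and 2 for Igfbp2), and none was held for H19. The arrays do not tell which start was used. E-boxes are in capitals. CANNTG includes the other forms, and CACCTG was read on both strands, as CACCTG or CAGGTG, while the other motifs read the same on both.
Igf2, start 1 in the direction of transcription, chr7:142666767-142667066, minus strand: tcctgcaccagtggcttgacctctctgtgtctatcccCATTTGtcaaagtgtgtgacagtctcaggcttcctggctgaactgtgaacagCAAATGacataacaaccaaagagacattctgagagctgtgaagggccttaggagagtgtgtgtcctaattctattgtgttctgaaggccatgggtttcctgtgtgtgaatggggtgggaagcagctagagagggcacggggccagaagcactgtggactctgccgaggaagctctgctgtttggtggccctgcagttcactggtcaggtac
Igf2, start 3, chr7:142658755-142659054, minus strand: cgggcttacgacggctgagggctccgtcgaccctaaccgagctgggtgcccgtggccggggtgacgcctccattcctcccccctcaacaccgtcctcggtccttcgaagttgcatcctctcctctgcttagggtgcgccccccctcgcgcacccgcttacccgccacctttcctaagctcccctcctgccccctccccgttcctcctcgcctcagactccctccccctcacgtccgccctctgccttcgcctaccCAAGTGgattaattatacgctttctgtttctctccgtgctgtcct
Igf1, chr10:87860861-87861160, plus strand: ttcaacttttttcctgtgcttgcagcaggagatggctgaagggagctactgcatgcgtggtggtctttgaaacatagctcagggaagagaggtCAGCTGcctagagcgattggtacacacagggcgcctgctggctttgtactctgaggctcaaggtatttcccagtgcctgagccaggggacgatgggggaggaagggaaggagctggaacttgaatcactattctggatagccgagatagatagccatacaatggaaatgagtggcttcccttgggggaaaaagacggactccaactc
Igfbp4, chr11:99040994-99041293, plus strand: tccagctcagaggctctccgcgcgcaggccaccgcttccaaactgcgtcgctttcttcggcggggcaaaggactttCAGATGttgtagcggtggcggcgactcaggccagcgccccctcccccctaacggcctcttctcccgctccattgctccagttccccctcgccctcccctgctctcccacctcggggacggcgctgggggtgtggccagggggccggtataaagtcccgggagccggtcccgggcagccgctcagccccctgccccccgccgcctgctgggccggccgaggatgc
Igfbp2, start 1, chr1:72824230-72824529, plus strand: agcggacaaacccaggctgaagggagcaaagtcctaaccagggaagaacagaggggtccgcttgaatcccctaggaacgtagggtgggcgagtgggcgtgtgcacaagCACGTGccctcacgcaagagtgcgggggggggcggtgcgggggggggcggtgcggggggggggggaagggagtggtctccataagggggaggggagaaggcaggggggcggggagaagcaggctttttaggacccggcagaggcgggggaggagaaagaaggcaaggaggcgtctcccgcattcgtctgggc
Igfbp2, start 2, chr1:72825137-72825436, plus strand: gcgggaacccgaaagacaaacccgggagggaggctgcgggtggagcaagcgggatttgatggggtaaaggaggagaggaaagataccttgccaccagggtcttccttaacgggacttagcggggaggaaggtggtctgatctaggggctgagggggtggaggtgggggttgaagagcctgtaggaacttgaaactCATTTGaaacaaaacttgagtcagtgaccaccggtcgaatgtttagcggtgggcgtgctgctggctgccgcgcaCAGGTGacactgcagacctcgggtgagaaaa

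CANNTG was found in 10 of the 13 windows, and in 72.3% of all 32851 RefSeq promoter windows of this length. CAGCTG was found in 1 of the 13, that of Igf1, 157 bases before the start, and in 16.3% of all windows. CACCTG was found in 3 of the 13, those of Igf2r, Igfbp3 and start 2 of Igfbp2, and in 20.2% of all windows. Igf2 had 3 CANNTG in its 4 windows, in forms other than these: CATTTG 213 and CAAATG 161 bases before start 1, and CAAGTG 5 bases after start 3. Igfbp4 had CAGATG 174 bases before its start and Igfbp2 had CACGTG 142 bases before start 1, CATTTG 55 bases before start 2 and CAGGTG 19 bases after it. These matches are letters in a window, not sites shown to be bound.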

How the data were processed

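RNA from 4 C2C12 cultures was labelled with biotin and hybridised to whole-transcript arrays, per the labels' protocols. Per the submitters' processing notes, the authors made the values with Affymetrix Expression Console; no version, background correction, normalization method or build is stated there. The deposited values were taken as log2: their range, 2.56 to 14.32, passes the limit of 11.1 for the natural log of a 16-bit scanner value. No detection calls were used, so only a value's level speaks of its distance from background, and 1 array per group limits the precision.

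Clusters were named through the platform's annotation. A single gene was named for 14996 of 23332 clusters, several for 1019 and none for 7317. Of the 14996, 14941 were matched by Entrez identifier to RefSeq (GRCm38.p6). A gene with several clusters took the brightest, giving 14860 genes, and each of the 10 genes had 1 cluster. Groups were taken from the sample labels. A comparison is the log2 difference of 2 arrays, and the difference of effects takes 4, computed over all genes and counted at 2-fold with no test. The counting was checked on simulated arrays with known folds, which tests the arithmetic and says nothing of the error of a difference. The genes and the 15 lists, the 10 genes among them, were chosen with earlier results of these data known. Of a list, the genes past 2-fold and not dim were named, at most 6 per comparison, or else the 2 farthest, and a few others as background; the muscle and cell-cycle lists were named for the knockdown comparisons only; for likeness, the 5 nearest genes of each member whose values span at least 1, model genes left out. Alternatives were quantile normalization, median centring, cyclic loess (limma 3.58.1), an offset of 50, a floor at the 25th percentile, the mean of a gene's clusters, leaving out dim genes, and a 1.5-fold threshold.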

Additional observations from a re-analysis of the deposited data

Results flagged for a closer look

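Igf1 and Igfbp4 had knockdown effects of opposite sign in the 2 states, on 1 array per group. With siMUNC, Igf1 was lower in differentiating cells (-0.97) and higher in proliferating cells (0.54), which makes its difference of effects -1.51. Igfbp4 was lower in differentiating cells (-1.33) and higher in proliferating cells (0.37), a difference of effects of -1.69. Both genes were dim on both proliferating arrays. The differences between states were not tested.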

How the results depend on the processing

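The 6 alternatives that recompute values gave 300 values of single genes. Of these, 290 stayed on their side of the 2-fold limit, 8 passed it and 2 dropped below it. Of the values past 2-fold, 0 changed sign. The floor and the mean of clusters left the 10 genes as they were, because none read below the floor and each had 1 cluster. The 290 therefore include values that could not move. For Igf2 the difference with siMUNC in differentiating cells ranged from -2.42 to -2.32, for Igfbp4 from -1.38 to -1.16 and for Igfbp2 from 1.10 to 1.14. On differentiation in siMUNC cells, a 1.5-fold threshold gave 6 genes higher and 1 lower, and median centring 1 lower (Igfbp2, -1.01). Quantile normalization and cyclic loess each gave 4 higher there, with Igf2r added (1.02 and 1.04). In control cells each of these 3 alternatives gave 5 higher, with Igfbp3 added. With siMUNC in differentiating cells, quantile normalization and the 1.5-fold threshold each gave 3 lower, with Igf1 added. With siMUNC in proliferating cells, quantile normalization, cyclic loess and the 1.5-fold threshold each gave 1 gene lower (H19). For the difference of effects, median centring and cyclic loess gave 0 genes higher, with Igfbp2 at 0.96 and just under 1, and the 1.5-fold threshold 2. Median centring moved the median of all genes to 0.101 for the knockdown in proliferating cells and -0.119 for the difference of effects. Leaving out a replicate was not possible with 1 array per group. No paired analysis was possible because each group has 1 array.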
